A study of Mus musculus with 16 samples.

Results

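The 8 genes described here, Hmgcs1, Idi1, Fdps, Fdft1, Sqle, Cyp51, Msmo1 and Dhcr7, encode enzymes of cholesterol synthesis, and were followed in whole mouse skin over 7 days of 4-hydroxytamoxifen (4OHT). They were taken as every probe set of an Affymetrix array whose single annotated gene symbol is one of these names, which gave 18 of 22626 probe sets that are not controls. Of these, 14 passed a filter on dim probe sets and all 8 genes were tested, among 9058 genes. The 8 genes all act in synthesis, and none of them takes up cholesterol.

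RNA came from the whole skin of D2 K14deltaNB-cateninER transgenic mice and, for comparison, of C57BL/6 mice without the transgene, called wild-type. The transgene is an N-terminally truncated β-catenin fused to the hormone-binding part of the oestrogen receptor, placed under the K14 promoter, whose activity is in the basal layer of keratinocytes, and 4OHT switches the fusion protein on. Skin was sampled after 0, 1 or 7 days of 4OHT, which wild-type mice received for the same times, on 2, 3 and 3 transgenic arrays and 3, 3 and 2 wild-type arrays. The day 0 groups had no 4OHT, no group had vehicle alone, and the labels name 1 transgenic line. A strain is given here for the wild-type mice only. Any strain difference between the genotypes therefore cannot be told apart from the transgene. The labels do not give the mice's age or sex, and they speak of mice for most arrays and of a single mouse for wild-type day 1 replicate 3 and both wild-type day 7 arrays. Since the labels do not say that each array is a separate animal, p-values measure the spread between arrays. The transgene's own mRNA was not tested here.

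Cholesterol is built from acetyl-CoA through mevalonate, isoprenoid diphosphates, squalene and lanosterol. Most genes of the pathway are switched on together by the sterol regulatory element-binding proteins, which the escort protein Scap carries out of the endoplasmic reticulum when sterols are low and which Insig proteins hold back when sterols are high. In skin, keratinocytes make much of their own cholesterol, and the epidermis secretes it with ceramides and fatty acids into the lipid layers of the permeability barrier.

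The sequences before the start sites are shown because most genes of the pathway share these regulators. The part of these regulators in the levels of the 8 genes was not tested. RefSeq's promoter table (GRCm38.p6) gave the 250 bases before the start of 5 of the 8 genes, in 7 windows, with 3 windows for Dhcr7. Fdps, Fdft1 and Sqle had no entry. The first 2 windows below belong to genes whose brightest probe set fell most in wild-type skin at day 1, and the third to Idi1, which had the largest rise in transgenic skin from day 1 to day 7. Capitals mark matches on either strand to TCACNNCAC (a loosened form of the sterol regulatory element), CCAAT (the CCAAT box) and GGGCGG (the GC box).
Msmo1, chr8:64733579-64733828, minus strand: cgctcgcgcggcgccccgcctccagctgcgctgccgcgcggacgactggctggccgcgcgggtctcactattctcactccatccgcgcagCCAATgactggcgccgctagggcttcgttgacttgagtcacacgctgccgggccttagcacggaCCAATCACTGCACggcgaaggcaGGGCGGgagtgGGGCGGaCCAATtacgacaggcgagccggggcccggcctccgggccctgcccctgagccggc
Hmgcs1, chr13:119690101-119690350, plus strand: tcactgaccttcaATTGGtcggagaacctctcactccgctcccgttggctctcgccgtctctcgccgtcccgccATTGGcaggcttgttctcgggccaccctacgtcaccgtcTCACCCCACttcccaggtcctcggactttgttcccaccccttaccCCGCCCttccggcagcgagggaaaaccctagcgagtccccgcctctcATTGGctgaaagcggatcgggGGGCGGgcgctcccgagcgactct
Idi1, chr13:8885356-8885605, plus strand: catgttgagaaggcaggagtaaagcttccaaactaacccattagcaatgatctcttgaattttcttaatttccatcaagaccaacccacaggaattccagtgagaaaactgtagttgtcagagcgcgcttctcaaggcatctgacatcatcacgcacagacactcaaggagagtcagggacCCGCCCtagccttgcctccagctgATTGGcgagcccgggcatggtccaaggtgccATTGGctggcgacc
In the Msmo1 window TCACTGCAC begins 92 bases before the start and shares bases with a CCAAT box that begins at 96. In the Hmgcs1 window TCACCCCAC begins 137 bases before the start, and in a Dhcr7 window TCACTTCAC begins at 130. TCACNNCAC was found in 3 of the 7 windows, and in 3.11% of all 32851 windows of this length in the table. CCAAT was found in 5 of the 7 windows and in 33.8% of all windows, and GGGCGG in 6 of the 7 and in 32.7% of all. The Idi1 and Cyp51 windows held CCAAT and GC boxes and no TCACNNCAC. The motifs were chosen from textbook knowledge of the pathway, and a match is a description of the letters, not a binding site.

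In wild-type skin, 1 day of 4OHT was followed by lower levels of 7 of the 8 genes. Values below are intensities of the brightest probe set of each gene after scaling every array to a common trimmed mean. Differences are on the scale log2(scaled intensity + 32) with the standard error (SE) of limma's fit, and a gene passed at an adjusted p under 0.05. The background of wild-type day 1 against day 0 was 12.3% of all 9058 genes lower and 22.3% changed in either direction. All 8 had an unadjusted p under 0.05. The median difference of the 8 genes was -0.54 on the log2 scale, against -0.02 over all genes. For 7 of the 8, all day 1 arrays lay below all day 0 arrays, as they did for 22.7% of all genes. In transgenic skin 1 of the 8 passed at day 1, where 4.15% of all genes were lower and 10.8% changed. All 8 transgenic differences were negative, with a median of -0.25 against -0.03 over all genes, and 5 of the 8 had day 1 arrays that all lay below day 0, against 22.5% of all genes.

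**Figure D1:**
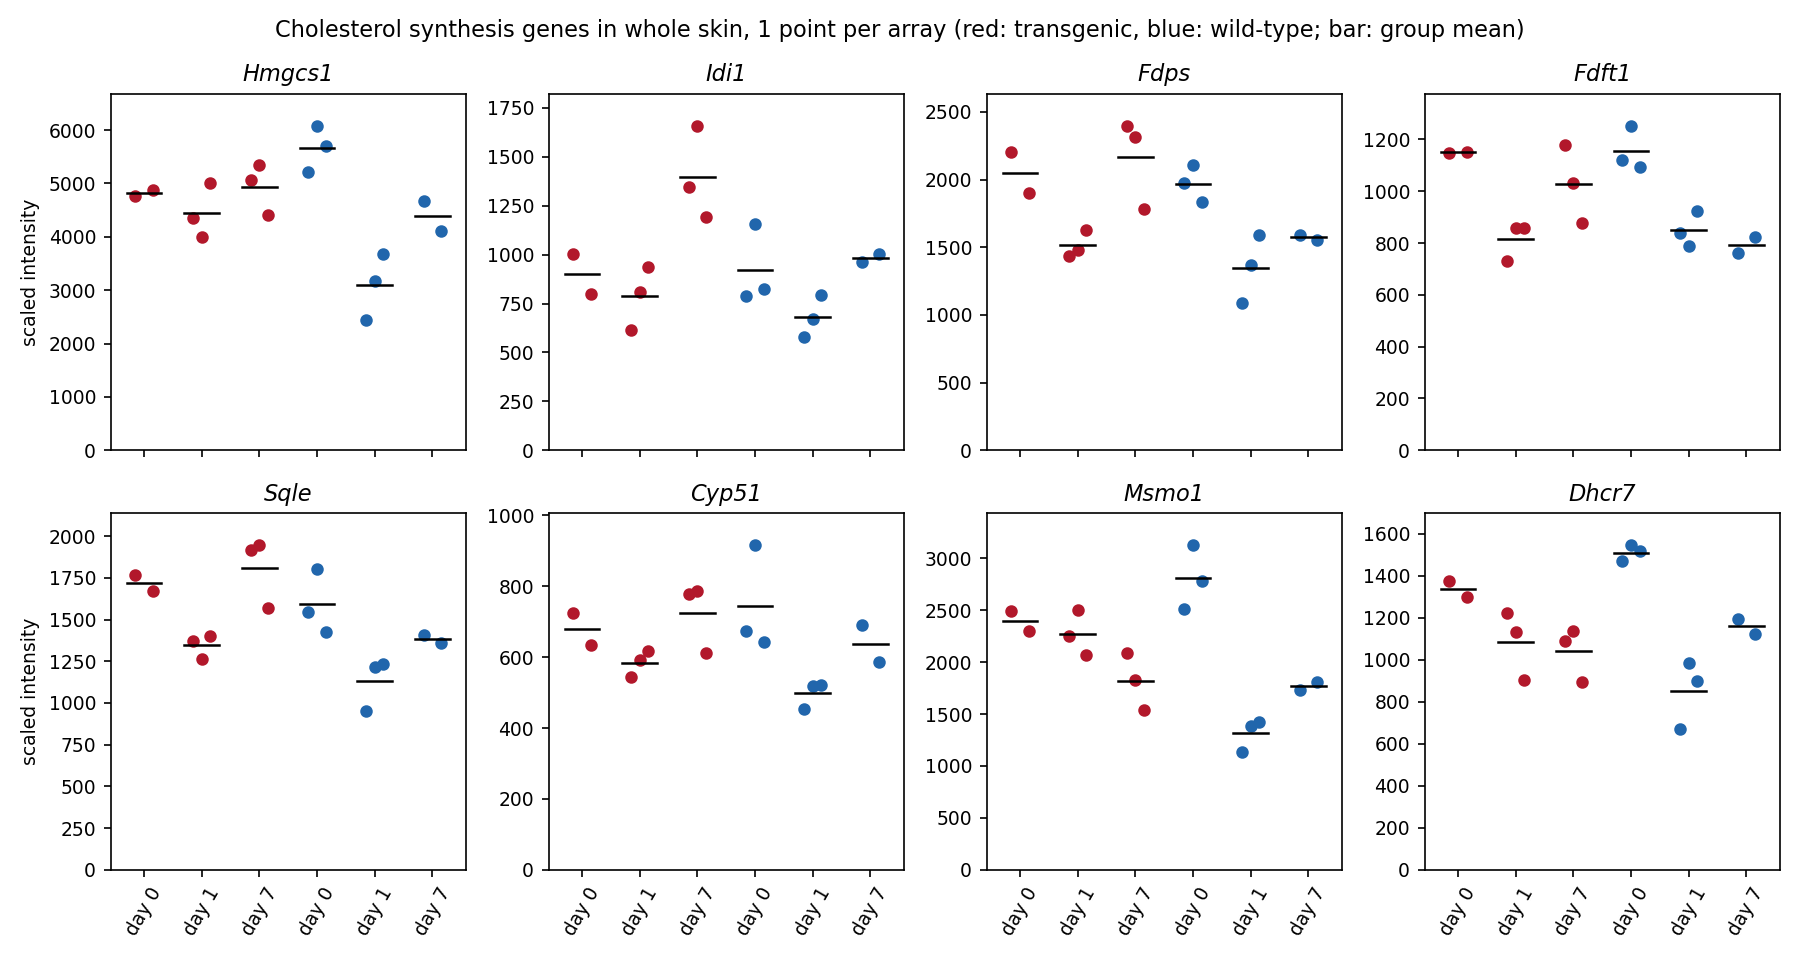
Scaled intensity of the brightest probe set of each of the 8 genes on every array, from 0, by genotype and day of 4OHT, with 1 point per array and a black bar at each group mean. The 3 wild-type day 1 arrays lie below the 3 wild-type day 0 arrays for every gene but Idi1, and Msmo1 stays between 2069 and 2500 in transgenic skin at day 1.

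The early steps make mevalonate and its isoprenoid products. Hmgcs1, the synthase that makes the precursor of mevalonate, read 5213, 6078 and 5695 on the wild-type day 0 arrays, 2450, 3169 and 3673 at day 1, and 4662 and 4111 at day 7. Its transgenic arrays read 4770 and 4878 at day 0, 4360, 3997 and 5000 at day 1, and 5059, 5350 and 4413 at day 7. The wild-type day 1 arrays were the lowest of all 16, and the transgenic groups overlapped. The wild-type fall at day 1 was -0.88 ± 0.13 (SE; adjusted p = 0.0004), and the transgenic difference of -0.12 ± 0.14 did not pass (adjusted p = 0.627). The 4 kept probe sets of Hmgcs1 gave different sizes. In the test of every kept probe set, where 21.5% of 13882 changed between wild-type day 0 and day 1, the brightest (1433443_a_at) fell by 0.88 on the log2 scale and the other 3 had differences of -0.1, -0.15 and -0.31 that did not pass. With the log2 values of all 4 averaged, the fall of Hmgcs1 was -0.36 (adjusted p = 0.0253).

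Idi1 interconverts the isoprenoid building blocks of the pathway. It read 788, 1159 and 822 on the wild-type day 0 arrays, 581, 673 and 796 at day 1, and 962 and 1002 at day 7. On transgenic arrays it read 1002 and 801, then 617, 807 and 938, then 1346, 1658 and 1193. The 3 transgenic day 7 arrays were the highest of all 16, and the day 0 and day 1 groups overlapped in both genotypes. Its wild-type day 1 difference, -0.41 ± 0.17, did not pass (adjusted p = 0.101), although its dimmer probe set 1423804_a_at did (-0.54, adjusted p = 0.0426 in the probe set test).

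Fdps makes farnesyl diphosphate, which feeds both sterols and protein prenylation. It read 1972, 2104 and 1831 on wild-type arrays at day 0, 1091, 1365 and 1590 at day 1, and 1590 and 1557 at day 7. The transgenic arrays read 2200 and 1901, then 1434, 1482 and 1627, then 2396, 2317 and 1785. In each genotype the day 1 arrays lay below the day 0 arrays without overlap. The wild-type fall was -0.55 ± 0.13 (adjusted p = 0.00734), and the transgenic difference of -0.43 ± 0.14 did not pass (adjusted p = 0.068).

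Fdft1, squalene synthase, commits farnesyl diphosphate to sterols. Its wild-type arrays read 1119, 1252 and 1095 at day 0, 840, 789 and 922 at day 1, and 761 and 823 at day 7. The transgenic arrays read 1147 and 1152 at day 0, 731, 858 and 859 at day 1, and 1180, 1030 and 878 at day 7. Fdft1 was lower at day 1 without overlap in both genotypes, and it passed in both, by -0.43 ± 0.11 in wild-type skin (adjusted p = 0.0097) and by -0.48 ± 0.12 in transgenic skin (adjusted p = 0.0181). Its second probe set, 1438322_x_at, gave -0.51 in wild-type skin (adjusted p = 0.0396) and -0.49 in transgenic skin (adjusted p = 0.111), where 8.92% of probe sets changed.

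The late steps turn squalene into cholesterol. Sqle, the epoxidase that is a rate-limiting step of this branch, read 1545, 1805 and 1426 on wild-type arrays at day 0, 949, 1213 and 1231 at day 1, and 1406 and 1359 at day 7. Transgenic arrays read 1768 and 1669, then 1369, 1263 and 1402, then 1919, 1944 and 1569. Day 1 lay below day 0 without overlap in both genotypes. The wild-type fall was -0.49 ± 0.11 (adjusted p = 0.0072), and the transgenic difference of -0.35 ± 0.13 did not pass (adjusted p = 0.0915).

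Cyp51 is the demethylase that acts on lanosterol. It read 674, 915 and 643 on wild-type day 0 arrays, 454, 519 and 520 at day 1, and 690 and 585 at day 7, and on transgenic arrays 724 and 633, then 543, 591 and 617, then 777, 787 and 611. Day 1 again lay below day 0 without overlap in both genotypes. The wild-type fall was -0.54 ± 0.13 (adjusted p = 0.00892), with -0.62 for probe set 1422533_at (adjusted p = 0.0158), and the transgenic difference was -0.21 ± 0.15 (adjusted p = 0.391).

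Msmo1, a methylsterol monooxygenase that helps remove methyl groups from the sterol nucleus, had the largest of the 8 wild-type changes at day 1. Its wild-type arrays read 2514, 3124 and 2783 at day 0, 1135, 1383 and 1423 at day 1, and 1727 and 1812 at day 7. Its transgenic arrays read 2491 and 2303 at day 0, 2251, 2500 and 2069 at day 1, and 2084, 1827 and 1542 at day 7. The wild-type day 1 arrays lay below every other array, while the transgenic day 0 and day 1 arrays overlapped. The wild-type fall was -1.08 ± 0.12 (adjusted p = 5.57e-05), a level of 0.473 times day 0, and the transgenic difference was -0.08 ± 0.13 (adjusted p = 0.748).

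Dhcr7, the reductase of the last step to cholesterol, read 1472, 1545 and 1517 on wild-type arrays at day 0, 672, 985 and 901 at day 1, and 1196 and 1124 at day 7. The transgenic arrays read 1375 and 1300, then 1221, 1132 and 903, then 1088, 1139 and 895. Wild-type day 1 lay below day 0 without overlap, and so did transgenic day 1 by a smaller margin. The wild-type fall was -0.82 ± 0.13 (adjusted p = 0.000872), and the transgenic difference of -0.3 ± 0.15 did not pass (adjusted p = 0.205).

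**Figure D2:**
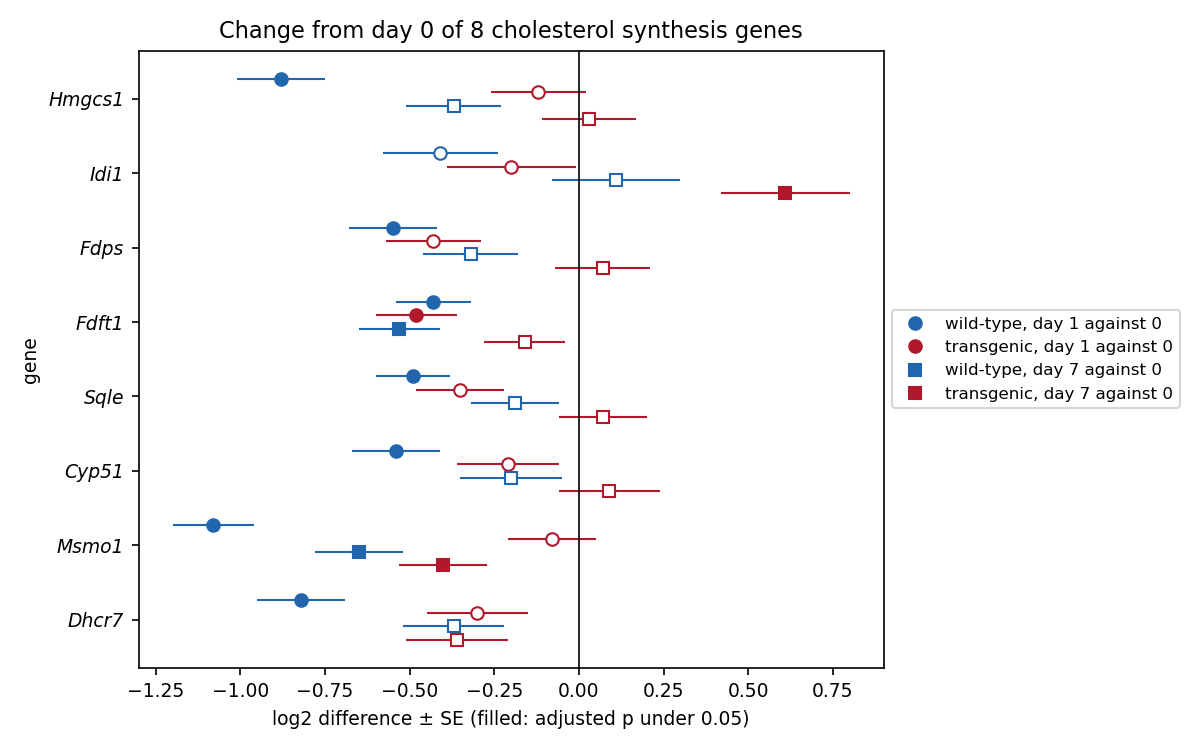
Log2 difference from day 0, with the SE of the fit, for the 8 genes at day 1 (circles) and day 7 (squares) in wild-type (blue) and transgenic (red) skin, filled where the adjusted p was under 0.05. Msmo1 at day 1 stood at -1.08 in wild-type and -0.08 in transgenic skin, and Idi1 at day 7 stood at 0.61 in transgenic skin.

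The wild-type falls of Hmgcs1, Msmo1 and Dhcr7 at day 1 passed under each of 27 other settings, while Fdft1 and Cyp51 no longer passed without wild-type day 0 replicate 2, and Fdps, Sqle, Fdft1 and Cyp51 no longer passed on the deposited values without common scaling. For the transgenic fall of Fdft1 the call was lost when either transgenic day 0 array or replicate 1 of day 1 was left out, without common scaling, and in a fit of only the groups compared.

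**Figure D3:**
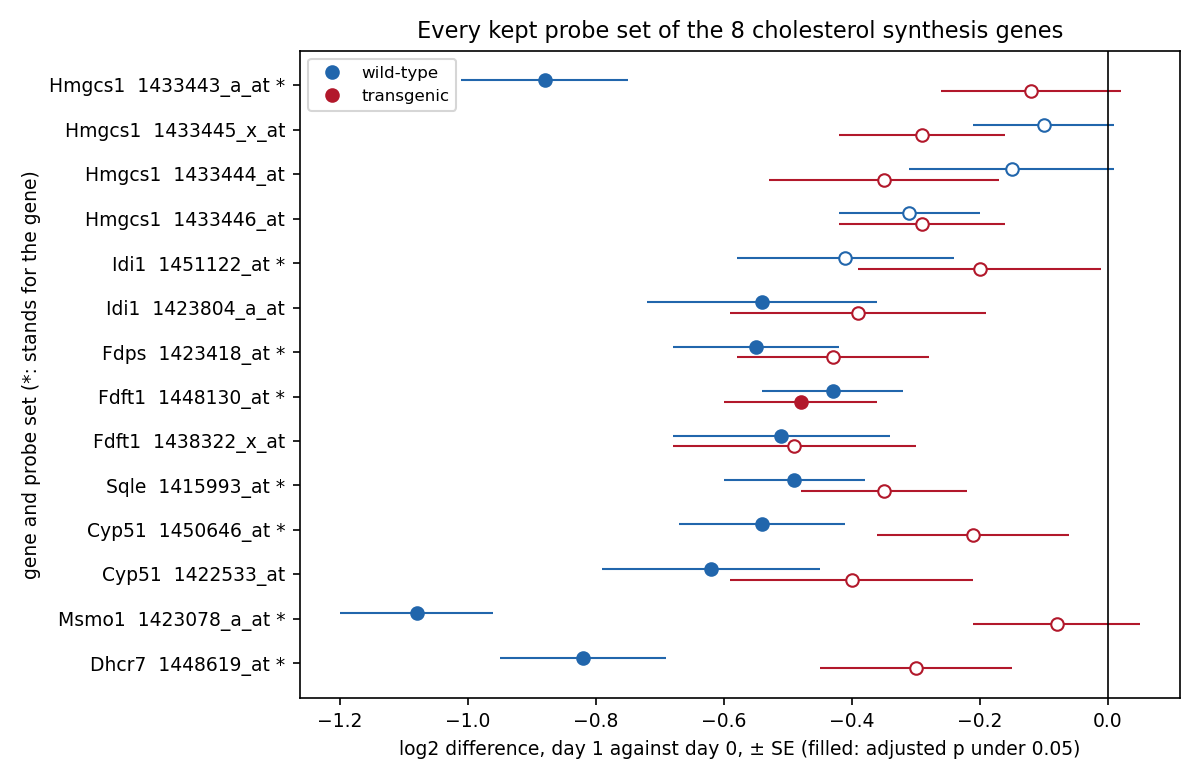
Log2 difference between day 1 and day 0, with its SE, for each of the 14 kept probe sets in wild-type (blue) and transgenic (red) skin, filled where the adjusted p over all kept probe sets was under 0.05. The brightest Hmgcs1 probe set stood at -0.88 in wild-type skin, apart from the other 3 of the gene, which stood between -0.31 and -0.1.

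The 4 probe sets left out by the filter, 1 of Fdps, 2 of Fdft1 and 1 of Cyp51, had intensities between 0.591 and 92.1 and were not tested. The array's probe sets of Sqle, Msmo1 and Dhcr7 number 1 each, so no second probe set bears on their values.

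The genotypes were then compared directly. At day 0, 0 of the 8 genes passed, with 0 at an unadjusted p under 0.05, and the background was 0.011% of all genes. The transgenic arrays of Hmgcs1, Msmo1 and Dhcr7 all lay below the wild-type arrays at day 0, as they did for 11.2% of all genes. At day 1, Msmo1 was higher in transgenic than in wild-type skin by 0.78 ± 0.12 (adjusted p = 0.00669), a level 1.72 times as high, without overlap between the arrays. The background at day 1 was 1.3% of all genes, with 0.707% higher. Hmgcs1 stood 0.53 ± 0.13 higher and did not pass (adjusted p = 0.0525), and its other probe sets gave -0.18, -0.19 and 0.05. The median of the 8 genes was 0.23, against 0 over all genes, and 4 of the 8 had transgenic arrays that all lay above the wild-type arrays, against 12.9% of all genes. The call on Msmo1 at day 1 was lost only without common scaling, among 27 other settings.

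The change from day 0 to day 1 itself differed between genotypes for Msmo1, by 1 ± 0.18 on the log2 scale (adjusted p = 0.0339), where 0.287% of all genes differed and 0.11% in this direction. The differences of Hmgcs1 (0.76 ± 0.19, adjusted p = 0.124) and Dhcr7 (0.52 ± 0.2, adjusted p = 0.245) did not pass, nor did those of the other 5 genes, which lay between -0.05 and 0.33. The other 3 probe sets of Hmgcs1 gave -0.19, -0.2 and 0.02 for this difference. The Msmo1 result lost its call under 12 of the 27 other settings, among them 8 that left out an array. Its adjusted p was 0.052 with the replicate number as a block and up to 0.62 without common scaling, with values from 0.8 to 1.08. The arrays left out in those 8 were transgenic day 0 replicates 1 and 2, transgenic day 1 replicates 1 and 2, wild-type day 0 replicates 2 and 3, and wild-type day 1 replicates 1 and 3.

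Ordered by mean intensity, Msmo1 ran from 2807 ± 306 (SD, n = 3) in wild-type skin at day 0 through 2397 ± 133 (n = 2), 2273 ± 216 (n = 3) and 1818 ± 271 (n = 3) in transgenic skin at days 0, 1 and 7 to 1769 ± 60.3 (n = 2) and 1313 ± 156 (n = 3) in wild-type skin at days 7 and 1. Of the neighbours in this order, transgenic day 1 and day 7 passed the limma test, and the other neighbouring pairs did not. The adjusted p was 0.994 for the genotypes at day 0, 0.748 for transgenic day 1 against day 0, 0.885 for the genotypes at day 7 and 0.0883 for wild-type day 7 against day 1.

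At day 7 the 8 genes stood on both sides of day 0 in transgenic skin. Idi1 was 1.53 times its day 0 level, with a difference of 0.61 ± 0.19 (adjusted p = 0.02), and Msmo1 had fallen to 0.757 times, by -0.4 ± 0.13 (adjusted p = 0.0247). The background of transgenic day 7 against day 0 was 38.7% of all genes, 18.6% higher and 20.1% lower, so 2 of 8 is below it. Dhcr7 had a difference of -0.36 ± 0.15 that did not pass (adjusted p = 0.0688), and the other 5 lay between -0.16 and 0.09. The median of the 8 was 0.05 against 0.01 over all genes. The day 7 arrays of 1 gene all lay above day 0 and those of 2 all below, against 29.9% and 29.7% of all genes. Idi1 lost its call when replicate 2 of either transgenic group was left out, Msmo1 when either day 0 array or replicate 3 of day 7 was, and both without common scaling.

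Between day 1 and day 7 of the transgenic mice, 4 of the 8 genes rose and 1 fell, where 21.5% of all genes rose and 22.7% fell, 44.3% in all. For 4 of the 8 the day 7 arrays all lay above the day 1 arrays, against 27% of all genes. The rises were 0.81 ± 0.17 for Idi1 (adjusted p = 0.00139), 0.5 ± 0.13 for Fdps (adjusted p = 0.00556), 0.42 ± 0.11 for Sqle (adjusted p = 0.00776) and 0.32 ± 0.11 for Fdft1 (adjusted p = 0.0237). Msmo1 fell by 0.32 on the log2 scale, SE 0.12 (adjusted p = 0.0362), with overlap between its day 1 and day 7 arrays. This comparison shares its day 1 arrays with the comparison of day 1 against day 0. For the brightest probe set of Hmgcs1 the difference was 0.15 ± 0.13 (adjusted p = 0.352), whereas its other probe sets rose by 0.37, 0.46 and 0.6, with adjusted p-values of 0.0156, 0.0268 and 0.000607, where 43.1% of probe sets changed. With all 4 averaged, Hmgcs1 rose by 0.4 (adjusted p = 0.00728). The brightest probe set of Cyp51 gave 0.29 ± 0.13 (adjusted p = 0.0818). Its second, 1422533_at, rose by 0.48 (adjusted p = 0.0279 in the probe set test), and both averaged rose by 0.39 (adjusted p = 0.0309). In the probe set test the second of Idi1, 1423804_a_at, rose by 0.8 (adjusted p = 0.00228). That of Fdft1, 1438322_x_at, gave 0.25 and did not pass (adjusted p = 0.233). Fdft1 lost its call when day 1 replicate 1 or day 7 replicate 1 or 2 was left out, and Msmo1 when day 1 replicate 1 or 2 or day 7 replicate 2 or 3 was. Both also lost it in a fit of only the groups compared, Fdft1 with its probe sets averaged and Msmo1 under quantile normalization, and all but Idi1 lost it without common scaling.

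In wild-type skin at day 7, Msmo1 and Fdft1 were still below day 0, by -0.65 ± 0.13 (adjusted p = 0.00563) and -0.53 ± 0.12 (adjusted p = 0.00972). The background was 5.96% of all genes lower and 11.4% changed. The day 7 arrays of 6 of the 8 genes lay below all day 0 arrays, as did those of 25% of all genes, and the median of the 8 was -0.34 against -0.03 over all genes. Both calls were lost without wild-type day 7 replicate 1 and without common scaling. From day 1 to day 7, 0 of the 8 passed limma's test, 6 had an unadjusted p under 0.05, and the background was 3.15% of all genes. The differences ran from -0.1 for Fdft1 to 0.51 for Hmgcs1 (adjusted p = 0.062 for the latter), and 6 of the 8 had day 7 arrays above all day 1 arrays, against 19.5% of all genes.

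At day 7 Fdps, Sqle and Fdft1 were higher in transgenic than in wild-type skin, by 0.44 ± 0.14 (adjusted p = 0.023), 0.38 ± 0.13 (adjusted p = 0.0272) and 0.36 ± 0.12 (adjusted p = 0.0249). Idi1 stood 0.48 ± 0.19 higher and did not pass (adjusted p = 0.0562). Of all genes 40.5% differed and 19.5% were higher, so 3 of 8 higher stands beside a high background, and 4 of the 8 lay above wild-type on all arrays, against 31.6% of all genes. Each of the 3 calls was lost when transgenic replicate 1 or 2 or either wild-type array of day 7 was left out and without common scaling, and that of Fdft1 also in a fit of only the groups compared. The change from day 0 to day 7 differed between genotypes for 0 of the 8 genes by limma, with 1 at an unadjusted p under 0.05, where 23.8% of all genes differed. All 8 estimates were positive, from 0.01 for Dhcr7 to 0.51 for Idi1. The change from day 1 to day 7 differed for Msmo1 alone among the 8, by -0.75 ± 0.18 (adjusted p = 0.00548), where 29.3% of all genes differed and 15.1% in this direction. It shares arrays with the day 0 to day 1 difference, and lost its call only without common scaling.

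The 8 genes also varied together from array to array. Over the 16 arrays the 28 pairs had Pearson correlations from 0.21 (Idi1 and Dhcr7) to 0.96 (Fdps and Sqle), with a median of 0.7, as a description of arrays that share groups and scaling. After the group means were taken out the values ran from 0.05 to 0.89, with a median of 0.64. All 8 genes were lowest among their group on transgenic day 7 replicate 3 and all 8 highest on wild-type day 0 replicate 2. In the wild-type day 1 group, 7 of the 8 were lowest on replicate 1 and 7 highest on replicate 3. Gapdh control probes gave a 3'/5' ratio between 0.884 and 1.26 over the 16 arrays, highest on wild-type day 0 replicate 2 and 0.911 on transgenic day 7 replicate 3. The actin ratio ran from 1.28 to 1.87, was highest on transgenic day 1 replicate 3, and was 1.7 and 1.39 on those 2 arrays. The part of RNA quality in this co-variation was not tested.

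Outside the gene lists used here, the genes whose levels were most like the mean of the 8 over the 16 arrays, as a description with no test, were Grhl1 (r = 0.96), Klc3 (0.95), Rab25 (0.95), Pkp3 (0.95) and Rai14 (0.93). Grhl1 encodes an epithelial transcription factor of the grainyhead family and Pkp3 a desmosomal plaque protein. The mean intensity of Grhl1 was 1920 in wild-type skin at day 0, 1102 at day 1 and 1540 at day 7, and 1919, 1484 and 1883 in transgenic skin. The least like were C5ar1 (r = -0.93), Clec5a (-0.92), Ednrb (-0.92), P2ry12 (-0.91) and Mcoln2 (-0.91). C5ar1, the receptor of a complement fragment on myeloid cells, had means of 133, 483 and 287 at days 0, 1 and 7 in wild-type skin and of 157, 399 and 168 in transgenic skin.

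Markers of the cells of skin moved beside the 8 genes, and in whole skin fewer cells of a type and less RNA per cell cannot be told apart. Of 10 basal epidermis markers tested (Krt5, Krt14, Itga6 and others), 8 were lower in wild-type skin at day 1 with a median of -0.42, and 1 of 10 in transgenic skin with a median of -0.27. Their summed intensity ran from 46544 to 50735 on wild-type day 0 arrays and from 35808 to 41755 at day 1, and from 44156 to 50658 and 39669 to 45063 on the transgenic arrays. Of 16 differentiated epidermis markers, 7 were lower in wild-type skin at day 1 (median -0.24) and 2 in transgenic skin (median -0.26). For both lists, the background at day 1 was 12.3% of all genes lower in wild-type skin and 4.15% in transgenic skin. Within each array, the mean of the 8 genes minus that of the basal markers was -0.94 at day 0 and -1.19 at day 1 in wild-type skin, with ranges of -1.08 to -0.76 and -1.29 to -1.11 that did not overlap, and -0.93 at day 7. In transgenic skin the same quantity was -0.99, -0.97 and -0.51 at days 0, 1 and 7. Against the differentiated markers it was -0.2, -0.45 and -0.43 at days 0, 1 and 7 in wild-type skin and -0.32, -0.35 and -0.07 in transgenic skin. Of 14 macrophage markers, 13 were higher in wild-type skin at day 1 (median 1.27) and 12 in transgenic skin (median 1.1). In either direction, 22.3% and 10.8% of all genes changed in these comparisons. Transgenic day 7 replicate 3, on which all 8 synthesis genes were lowest in their group, had a summed macrophage intensity of 33485, against 20166 and 20090 on replicates 1 and 2. The same array also stood apart in its summed hair shaft and root sheath markers (35146, against 49735 and 62588), sebaceous gland markers (24735, against 27602 and 28937), fibroblast markers (64636, against 51658 and 55761) and muscle markers (64112, against 55604 and 56325). Wild-type day 1 replicate 1, lowest in its group for 7 of the 8 genes, had a summed fat cell intensity of 36615. Replicates 2 and 3 had 23301 and 24442. Its summed basal markers (35808, against 39153 and 41755) and muscle markers (79525, against 83191 and 93600) were the lowest of its group. Its summed macrophage intensity was 44841, against 40887 and 44617. At day 7 the macrophage list was higher by a median of 1.04 in wild-type skin with 13 passing, and by 0.13 with 0 passing by limma in transgenic skin. Of all genes, 11.4% and 38.7% changed in these comparisons. The part of these cell markers in the results on the 8 genes was not tested.

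**Figure D4:**
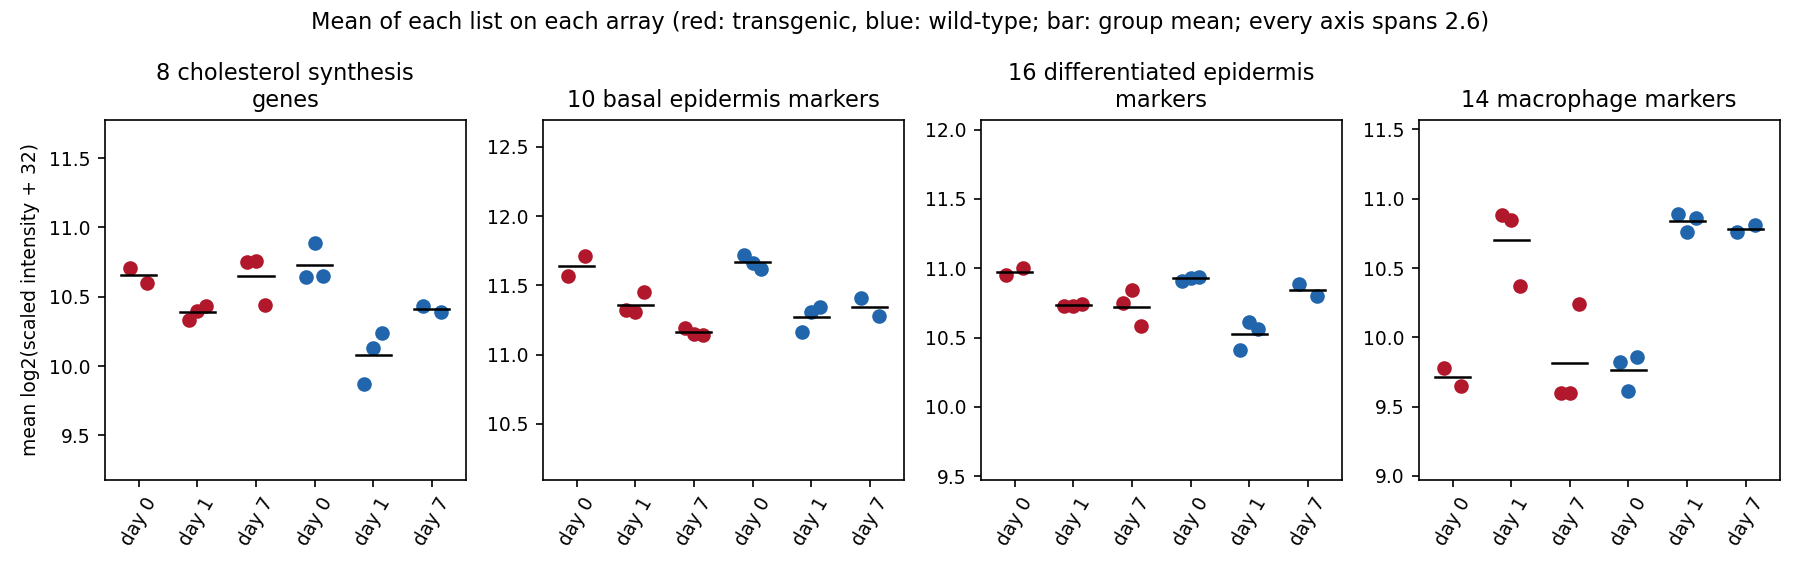
Mean log2(scaled intensity + 32) of the 8 cholesterol synthesis genes and of 3 marker lists on each array, by genotype and day, with 1 point per array, bars at group means and axes that each span 2.6. The 8 genes averaged 10.73 at day 0 and 10.08 at day 1 in wild-type skin and 10.65 and 10.38 in transgenic skin, and the macrophage list moved up in both genotypes at day 1.

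Hair and cell cycle genes were higher in transgenic skin at day 7. Of 16 hair shaft and root sheath markers 15 were higher with a median of 4.75, and their summed intensity ran from 2281 to 2753 on day 0 arrays and from 35146 to 62588 at day 7. In the same comparison all 15 cell cycle genes tested were higher with a median of 1.88, and 6 of 10 basal markers were lower with a median of -0.55. Of 10 sebaceous gland markers tested, whose cells make much lipid, 2 were higher and 3 lower with a median of -0.06, near the 18.6% of all genes higher and 20.1% lower. Cell cycle genes were already higher at day 1, 14 of 15 in transgenic skin (median 0.89) and 11 of 15 in wild-type skin (median 0.65). In either direction, 10.8% and 22.3% of all genes changed between day 0 and day 1. The part of these lists in the day 1 values of the 8 genes was not tested, nor in the day 7 values of Idi1, Fdps, Sqle and Fdft1.

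The other enzymes of the pathway were read from a further list. Of 13 further synthesis genes on the list, 10 were tested (Mvk, Pmvk, Mvd, Lss, Tm7sf2, Lbr, Nsdhl, Hsd17b7, Ebp and Sc5d), and 2 of the 10 were lower in wild-type skin at day 1 with a list median of -0.06, against 12.3% of all genes lower. These were Mvk, mevalonate kinase, by -0.36 ± 0.09 (adjusted p = 0.0125), and Pmvk, phosphomevalonate kinase, by -0.49 ± 0.16 (adjusted p = 0.0373). Mvk averaged 401 ± 42 (SD, n = 3) at day 0 and 306 ± 28.2 (n = 3) at day 1. In transgenic skin at day 1, 2 of the 10 were lower, Sc5d by -0.7 ± 0.18 (adjusted p = 0.0202) and Nsdhl by -0.38 ± 0.11 (adjusted p = 0.0326), with a median of -0.16, against 4.15% of all genes lower. Each of these calls was lost when some single array was left out: Mvk without wild-type day 0 replicate 1 or day 1 replicate 3, Pmvk without wild-type day 0 replicate 1 or 2 or any day 1 array, Sc5d without transgenic day 0 replicate 1 or day 1 replicate 3, and Nsdhl without either transgenic day 0 array or day 1 replicate 1 or 2. Sc5d read 787 and 1173 on its transgenic day 0 arrays, so that group was widely spread.

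Lbr, which encodes the lamin B receptor, a nuclear envelope protein that also has sterol reductase activity, was the gene of this list that was higher at transgenic day 7. Its mean was 1273 ± 64.9 (SD, n = 2) in transgenic skin at day 0, 1268 ± 119 (n = 3) at day 1 and 2374 ± 97.8 (n = 3) at day 7, and its wild-type arrays ran from 975 to 1234. The transgenic rise from day 0 was 0.88 ± 0.11 (adjusted p = 1.2e-05), and at day 7 it stood 1.01 ± 0.11 above wild-type (adjusted p = 4.48e-06). Pmvk (-0.49 ± 0.18, adjusted p = 0.0412) and Sc5d (-0.48 ± 0.18, adjusted p = 0.0424) were lower at transgenic day 7, which made 1 of the 10 higher and 2 lower, with a median of 0.04, beside 18.6% of all genes higher and 20.1% lower. Both lost the call when transgenic day 0 replicate 1 or day 7 replicate 2 or 3 was left out, Pmvk also without day 0 replicate 2, and Sc5d also without wild-type day 0 replicate 3 or either wild-type day 7 array. Nsdhl rose from transgenic day 1 to day 7 by 0.34 ± 0.09 (adjusted p = 0.00799).

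**Figure D5:**
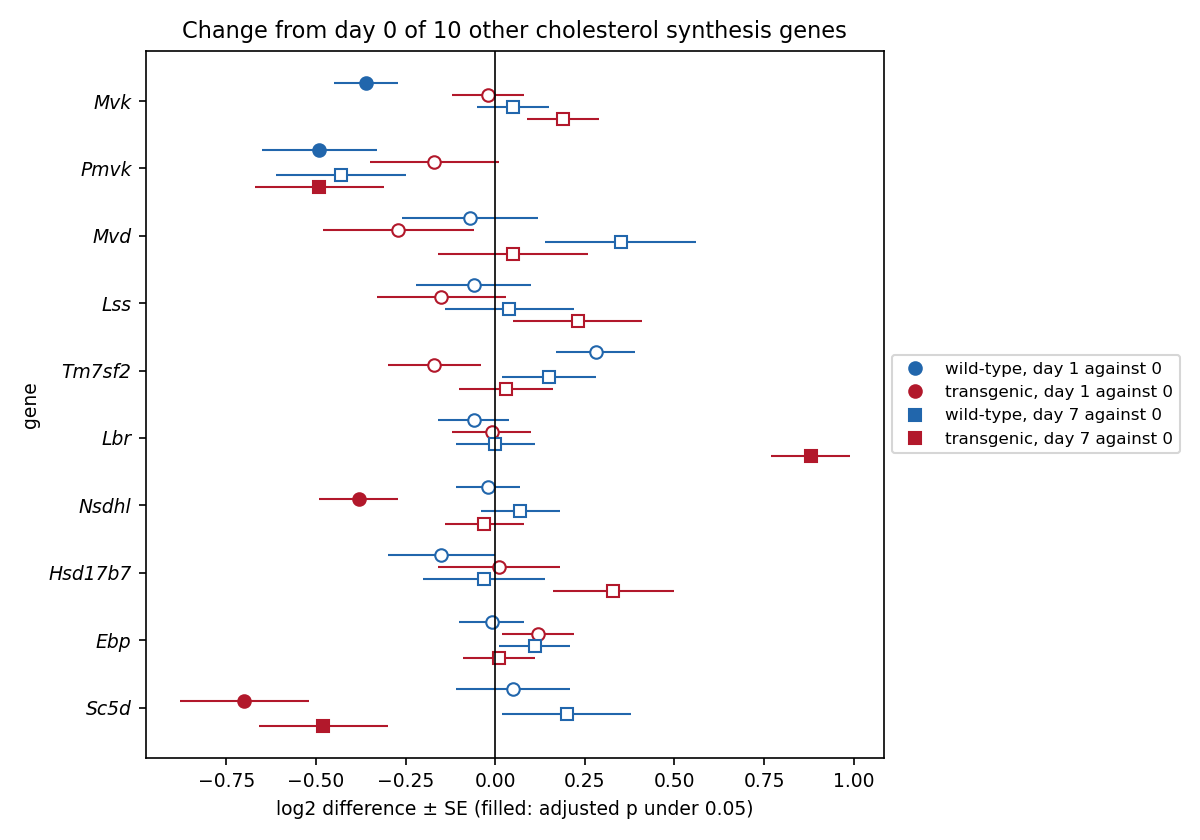
Log2 difference from day 0, with the SE of the fit, for the 10 other cholesterol synthesis genes tested, at day 1 (circles) and day 7 (squares) in wild-type (blue) and transgenic (red) skin, filled where the adjusted p was under 0.05. Lbr at transgenic day 7 stands at 0.88, and Mvk and Pmvk are the filled wild-type points at day 1.

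The regulators and the genes of uptake were read from a list of 19, of which 13 were tested. Srebf2, the sterol-responsive factor that switches on synthesis genes, was higher in transgenic skin at day 7 than at day 0 by 0.46 ± 0.14 (adjusted p = 0.0186) and than at day 1 by 0.46 ± 0.13 (adjusted p = 0.00812). It averaged 679 ± 39.7 (SD, n = 2), 683 ± 118 (n = 3) and 946 ± 77.5 (n = 3) at days 0, 1 and 7, and its 3 day 7 arrays lay above all day 0 and day 1 arrays of the transgenic mice. In wild-type skin its arrays ran from 602 to 857 at day 0, from 614 to 642 at day 1 and from 758 to 781 at day 7, and its difference of -0.21 ± 0.13 at day 1 did not pass (adjusted p = 0.256). The call against day 0 was lost when transgenic day 0 replicate 1 or day 7 replicate 3 was left out, and both calls without common scaling.

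In wild-type skin at day 1, Scap was lower by -0.4 ± 0.1 (adjusted p = 0.00995) and Insig2 by -0.45 ± 0.13 (adjusted p = 0.0228), 2 of the 13 genes, with a list median of -0.12, beside 12.3% of all genes lower, so the count is near the background. Insig2 averaged 1272 ± 144 (SD, n = 3) at day 0 and 918 ± 86.7 (n = 3) at day 1. Over the 16 arrays its correlation with the mean of the 8 genes was 0.9, the highest among the regulators. Scap stood at 0.67 and Srebf2 at 0.35, while Grhl1, outside the pathway, reached 0.96. Scap lost its call without wild-type day 1 replicate 1, and Insig2 without wild-type day 0 replicate 1 or 2 or day 1 replicate 1 or 2.

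In transgenic skin Vldlr, the receptor of very low density lipoprotein, fell from 984 ± 212 (SD, n = 2) at day 0 to 528 ± 8.03 (n = 3) at day 1 and 282 ± 45.9 (n = 3) at day 7, by -0.84 ± 0.16 (adjusted p = 0.00472) and -1.69 ± 0.16 (adjusted p = 1.24e-06). On this list 2 of 13 genes were lower at transgenic day 1, beside 4.15% of all genes, and 1 was higher and 2 lower at day 7, beside 18.6% and 20.1%. The day 1 call of Vldlr was lost without transgenic day 0 replicate 2. In wild-type skin Vldlr averaged 634 ± 117 (n = 3), 580 ± 87.7 (n = 3) and 736 ± 4.05 (n = 2). Stard4, which carries cholesterol between membranes, was lower at transgenic day 1 by -0.51 ± 0.13 (adjusted p = 0.0231) and rose from day 1 to day 7 by 0.51 ± 0.12 (adjusted p = 0.00273). Its day 1 call was lost when replicate 2 of either group was left out. Between these times the scavenging receptor Lrp1 fell by 0.64 on the log2 scale (adjusted p = 0.000318) and the lysosomal lipase Lipa fell by 0.95 (adjusted p = 0.000176). Of 14 macrophage markers 11 fell, with a median of -0.94, beside 22.7% of all genes. The part of macrophages in the levels of Lrp1 and Lipa was not tested.

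Of 12 genes of sterol efflux and esterification 8 were tested. In wild-type skin at day 1 the efflux pump Abcg1 was higher by 0.35 ± 0.09 (adjusted p = 0.0126), and Sult2b1, which sulphates cholesterol in the epidermis, was lower by -0.88 ± 0.21 (adjusted p = 0.00825). At wild-type day 7 the pumps Abca1 and Abcg1 were higher, by 0.5 ± 0.1 (adjusted p = 0.00541) and 0.43 ± 0.1 (adjusted p = 0.0129). At transgenic day 7, Cyp27a1 (-0.55 ± 0.14, adjusted p = 0.00499), Osbp (-0.4 ± 0.09, adjusted p = 0.00243) and Nr1h3 (-0.65 ± 0.22, adjusted p = 0.0293) were lower. Abcg1 at wild-type day 1 lost its call without wild-type day 1 replicate 1, Abca1 at wild-type day 7 without day 7 replicate 1, and Abcg1 at wild-type day 7 without either day 7 array, where macrophage markers were also higher. Those of transgenic day 7 were lost without day 0 replicate 2 for Cyp27a1 and Osbp, and for Nr1h3 without either day 0 array or day 7 replicate 1 or 3. Of 8 genes of the branches that use mevalonate products for other ends, 4 were tested, and Fnta, a subunit of the enzymes that prenylate proteins, was lower at wild-type day 1 by -0.39 ± 0.08 (adjusted p = 0.00383) and at transgenic day 7 by -0.44 ± 0.09 (adjusted p = 0.00121).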

How the data were processed

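Whole-skin RNA was measured on 16 Affymetrix Mouse 430 A arrays, 1 per sample, in 6 groups read from the titles. The authors deposited an intensity on a linear scale for 22690 probe sets, 64 of them controls. How probes were summarised is not given here by any source, nor is any scaling at that stage. The number of arrays limits the precision.

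The trimmed mean of an array (2% off each end) ran from 359 to 548, so arrays were scaled to a common one by factors from 0.825 to 1.26. A probe set was kept if 2 or more arrays had it above their own 40th percentile, which left 15058, of which 13882 had 1 symbol in the platform annotation. The brightest on average stood for each of 9058 genes. Group means of log2(scaled intensity + 32) were fitted in limma 3.58.1 (R 4.3.3) with a variance trend and 10 residual degrees of freedom, in 12 two-sided comparisons, with Benjamini-Hochberg adjustment over all genes within each. The added 32 understates changes from low intensities. The fit was tested on simulated data of 9058 genes with normal noise, in which 200 genes were changed, in 3 runs. It recovered 65% of 1.5-fold and 90.7% of 2-fold changes for wild-type day 1 against day 0. For the genotype difference in the change from day 0 to day 1 it recovered 29.3% and 74%. The 200 changed genes are a smaller share than the 22.3% called in the data for wild-type day 1 against day 0. Noise was drawn for each gene on its own, whereas the 8 genes varied together. The percentages therefore describe the simulated setting only.

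The 8 genes and the other gene lists were chosen with earlier results of these data known. The 8 genes could be named in every comparison, with each kept probe set. Of the lipid lists, Srebf2 and up to 4 further called genes with the smallest p in each comparison, were open to naming, as were the 5 genes most and least like the mean of the 8. Promoters came from RefSeq (GRCm38.p6), and plots from matplotlib 3.10.9 (Python 3.11.15). Alternatives changed the scaling, the added value, the filter, the probe set rule, the arrays in the fit, the variance model and the replicate block, and left out each array.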

Additional observations from a re-analysis of the deposited data

Results flagged for a closer look

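Each of the following is a difference between genotypes in a change over time that passed limma's interaction test at an adjusted p under 0.05, given as transgenic minus wild-type on the log2 scale. Msmo1 differed by 1 ± 0.18 from day 0 to day 1 (adjusted p = 0.0339) and by -0.75 ± 0.18 from day 1 to day 7 (adjusted p = 0.00548). Wild-type Msmo1 fell at day 1. From day 1 to day 7 its difference was 0.43 in wild-type skin, which did not pass (adjusted p = 0.0883), and -0.32 in transgenic skin (adjusted p = 0.0362). Both estimates use the same day 1 arrays.

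Lbr had a higher change in transgenic skin, by 0.88 ± 0.15 from day 0 to day 7 (adjusted p = 0.000881) and by 0.83 ± 0.15 from day 1 to day 7 (adjusted p = 0.000699). Vldlr differed by -1.91 ± 0.23 from day 0 to day 7 (adjusted p = 5.92e-05) and by -1.18 ± 0.22 from day 1 to day 7 (adjusted p = 0.00113). Transgenic minus wild-type, Vldlr stood at 0.61 at day 0, which did not pass, and at -1.3 at day 7. The estimate from day 0 to day 7 holds both, and the transgenic day 0 group had 2 arrays. Fnta differed by -0.55 ± 0.12 from day 1 to day 7 (adjusted p = 0.00373).

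Of the genes tested, 13 were of sterol sensing and uptake and 8 of sterol efflux and esterification. From day 0 to day 7, 3 of each list passed, all with a lower change in transgenic skin. In either direction, 23.8% of all genes differed. Besides Vldlr, from day 0 to day 7 the differences were -0.64 ± 0.18 for Lrp1 (adjusted p = 0.0167), -0.8 ± 0.25 for Lipa (adjusted p = 0.0274), -0.49 ± 0.14 for Abca1 (adjusted p = 0.0218), -0.45 ± 0.14 for Abcg1 (adjusted p = 0.0344) and -0.93 ± 0.2 for Cyp27a1 (adjusted p = 0.00322). From day 1 to day 7 they were -0.71 ± 0.17 for Lrp1 (adjusted p = 0.00556), -0.91 ± 0.23 for Lipa (adjusted p = 0.00917), -0.42 ± 0.14 for Abcg1 (adjusted p = 0.0321) and -0.67 ± 0.19 for Cyp27a1 (adjusted p = 0.0135), and Abca1 did not pass. Of 14 macrophage markers 10 had a lower change in transgenic skin from day 0 to day 7, with a median of -1.03, and their part was not tested. From day 0 to day 7 the call was lost for Lrp1 when replicate 2 of transgenic day 0 or replicate 1 of wild-type day 7 was left out, for Abca1 on leaving out each of these and replicate 1 of transgenic day 7, for Lipa on leaving out each of 5 arrays and for Abcg1 each of 8. From day 1 to day 7 it was lost for Lipa and Cyp27a1 without wild-type day 7 replicate 2 and for Abcg1 on leaving out each of 7 arrays.

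Among the genes of fatty acid synthesis, Scd2 differed by 0.93 ± 0.21 (adjusted p = 0.00497) and Fads2 by 0.91 ± 0.23 (adjusted p = 0.0107) from day 0 to day 7, and by 1.2 ± 0.2 (adjusted p = 0.00043) and 1.46 ± 0.22 (adjusted p = 0.000222) from day 1 to day 7. Me1 differed by -1.1 ± 0.3 (adjusted p = 0.0155) and -1.11 ± 0.29 (adjusted p = 0.00944), and Elovl5 by -0.72 ± 0.17 (adjusted p = 0.00569) and -0.61 ± 0.16 (adjusted p = 0.00973), over the same times. From day 0 to day 7 the call was lost for Fads2 without wild-type day 7 replicate 2 and for Me1 without transgenic day 0 replicate 1, and from day 1 to day 7 for Elovl5 without wild-type day 7 replicate 1. The groups held 2 or 3 arrays, too few to test a single array as an outlier.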

How the results depend on the processing

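Of the 23 results on the 8 genes that passed the threshold, 4 passed under all 27 other settings, Idi1 for transgenic day 7 against day 1 and Hmgcs1, Msmo1 and Dhcr7 for wild-type day 1 against day 0, and 0 changed sign. Of 73 values that did not pass, 11 passed in some setting and 17 changed sign in some setting. On the deposited values without common scaling, the number of the 8 genes past the threshold was 0 for transgenic day 1 against day 0, 0 for transgenic day 7 against day 0, 1 for transgenic day 7 against day 1, 3 for wild-type day 1 against day 0, 0 for wild-type day 7 against day 0, 0 for the genotypes at day 1, 0 at day 7, and 0 for the genotype difference in change, both from day 0 to day 1 and from day 1 to day 7. Without that scaling the median of all genes moved from -0.03 to -0.16 at transgenic day 1 against day 0, from 0.01 to -0.13 at transgenic day 7 against day 0, from -0.01 to 0.14 between genotypes at day 0, from -0.01 to -0.11 at wild-type day 7 against day 1 and from 0.01 to -0.18 for the difference in the change to day 1. In a fit of only the groups compared, 0 genes passed for transgenic day 1 against day 0 and 3 for day 7 against day 1. Quantile normalization gave 2 between genotypes at day 1 and 2 for the difference from day 1 to day 7, and the stricter filter (above the 60th percentile, 3 arrays) gave 2 between genotypes at day 1. No filter, no variance trend and the replicate block each gave 0 for the difference from day 0 to day 1.

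When each array was left out in turn, the count ran from 0 to 2 for transgenic day 1 against day 0, 0 to 3 for day 7 against day 0 and 3 to 6 for day 7 against day 1. In wild-type skin it ran from 5 to 7 for day 1 against day 0, 0 to 2 for day 7 against day 0 and 0 to 1 for day 7 against day 1. Between genotypes it ran from 0 to 0 at day 0, 1 to 2 at day 1 and 0 to 4 at day 7, and for the differences in change it ran from 0 to 1 to day 1, 0 to 1 to day 7 and 1 to 2 from day 1 to day 7. Deviations from the group means were weakly correlated between arrays with the same replicate number (36 pairs, r from -0.25 to 0.19, median 0.03, 7 over 0.1). With groups of 2 or 3 arrays this cannot exclude a pairing, and the main fit used none. With the replicate block, Msmo1's difference in the change to day 1 was 1.03 (adjusted p = 0.052), and no other count of the 8 genes moved by over 1.5 times. Outside the stated cases the cause of these changes was not tested.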

Other observations

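Fatty acid synthesis shares the regulator family of the sterol pathway, and some of its genes changed in transgenic skin at day 7. Of 14 genes on that list 12 were tested, 3 were higher and 4 lower than at day 0, with a median of -0.24, beside 18.6% of all genes higher and 20.1% lower. Scd2, a desaturase that makes monounsaturated fatty acids, averaged 1382 ± 255 (SD, n = 2) at day 0 and 4458 ± 608 (n = 3) at day 7, a rise of 1.67 ± 0.15 (adjusted p = 4.51e-07). Fads2 and Fads1, desaturases of polyunsaturated fatty acids, rose by 1.26 ± 0.17 (adjusted p = 2.26e-05) and 0.67 ± 0.13 (adjusted p = 0.000614). Me1, which supplies NADPH for lipid synthesis, averaged 2713 ± 564 (n = 2) at day 0 and 1037 ± 95.2 (n = 3) at day 7 (-1.35 ± 0.21, adjusted p = 0.000132), and the elongase Elovl5 fell by 0.78 on the log2 scale (adjusted p = 7.92e-05).

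In wild-type skin Scd2 was higher at day 7 by 0.74 ± 0.15 (adjusted p = 0.00514), a call lost without wild-type day 7 replicate 2. At wild-type day 1, 1 of the 12 fatty acid synthesis genes was lower, beside 12.3% of all genes, Elovl6 by -0.45 ± 0.15 (adjusted p = 0.0389), and the list median was -0.19. That call was lost when any wild-type day 0 array or day 1 replicate 1 or 2 was left out. Fat cell markers, 9 of which were tested, were lower for 7 genes at transgenic day 7 with a median of -1.26, beside 20.1% of all genes. The part of these markers in the values of the fatty acid synthesis list was not tested.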
